A study of Homo sapiens with 12 samples.

Results

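Keratins are the filament proteins of epithelial cells, and keratin-associated proteins fill the space between the filaments of hair. The RefSeq annotation of the human assembly GRCh38.p14 holds 149 protein-coding genes on chromosomes 11, 12, 17 and 21 whose symbol is KRT or KRTAP followed by a digit, among 20037 protein-coding genes in all. They comprise 55 KRT and 94 KRTAP genes, which were chosen by name and not by any measured value. Their chromatin was read from CUT&Tag profiles of the cell line HepG2/C3A, a clonal derivative of the HepG2 hepatocellular carcinoma line. In CUT&Tag, an antibody bound to chromatin recruits a transposase, and the DNA fragments that are cut out nearby are sequenced. One antibody recognised histone H3 trimethylated at lysine 27 (H3K27me3), and the other recognised succinyllysine in proteins of any kind (Ksu, for pan-succinyllysine). Cells were either controls or given 10 mM sodium succinate, each for 48 h. Each combination of antibody and treatment had 2 biological replicates, which makes 8 peak lists, and 4 IgG samples were not used here. The labels do not say whether the replicates came from separate cultures or passages, and a p-value therefore measures only the spread between these libraries. All cells were of 1 line, and the labels name no genetic change.

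Keratins form filaments as pairs of an acidic type I and a basic type II chain. The type II genes lie together on chromosome 12 and most type I genes on chromosome 17, with the type I gene KRT18 as the exception beside its partner KRT8 on chromosome 12. KRT8 and KRT18 are the keratins of hepatocytes, while other members serve the epidermis, the inner root sheath or the hair shaft. H3K27me3 is laid down by Polycomb group enzymes and is known for marking silent genes of other lineages. Lysine succinylation is a modification made from succinyl-CoA. Neither RNA nor protein was measured in these libraries, so statements on where a keratin is expressed are background.

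A member was counted as overlapped when at least 1 bp of its gene body lay under a peak, and its cover was the percentage of its gene-body bases under peaks. The genes differed widely in length, from 208 to 52670 bp, with a median of 828.5 bp for KRTAP genes and 6433 bp for KRT genes. The narrowest H3K27me3 peak of a library was between 1156 and 2229 bp wide, so a KRTAP gene was usually covered whole or not at all. The members fell into 6 loci, defined as runs of members with gaps under 1 Mb. The locus at 12q13 (chr12:52168996-52952906) held 27 KRT genes, and that at 17q21 (chr17:40654665-41624575) held 28 KRT and 34 KRTAP genes. The remaining KRTAP genes lay at 11p15.5 (6 genes, chr11:1584342-1697755), 11q13.4 (5 genes, chr11:71527267-71582875), 21q22.1 (33 genes, chr21:30281309-31038476) and 21q22.3 (16 genes, chr21:44538981-44698044).

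The peak lists differed in size within a treatment as much as between treatments. The H3K27me3 lists held 19133 and 5813 peaks in control replicates 1 and 2 and 9985 and 5531 in succinate replicates 1 and 2. The Ksu lists held 76702 and 382019 peaks in control and 294568 and 629903 after succinate. Ksu control replicate 1 stood apart with the fewest peaks and the highest floor, the lowest total signal of any listed peak. Some Ksu results are also given without it, whereas Ksu values by locus, by gene and by H3K27me3 state are not. Read depth is unknown from peak lists, and no counting interval can be given. To allow for list size, the cover of a group was divided by the cover of all protein-coding gene bodies in the same library, a quotient called relative cover. As a check of the cell label, the gene bodies of 10 of 10 hepatocyte genes, ALB, TTR and HNF4A among them, were under H3K27me3 in none of the 4 libraries (75% of all genes were in none), whereas the keratinocyte genes KRT1, KRT5 and KRT14 were overlapped in all 4 and KRT10 and TP63 in none.

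H3K27me3 covered keratin gene bodies far more than gene bodies at large, but the members divided sharply by locus. Over all members, 49.5% and 35.8% of gene-body bases lay under H3K27me3 peaks in the control libraries and 49.7% and 41.4% in the succinate libraries. For all protein-coding genes the values were 7.07% and 4.59% in control and 6.29% and 5.30% after succinate. Members' cover was thus 7.0 and 7.81 times that of all gene bodies in control and 7.90 and 7.81 times in succinate.

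Counted by gene, 28 of the 149 members were overlapped by H3K27me3 in all 4 libraries (18.8%), against 12.3% of all protein-coding genes. No library overlapped 98 members (65.8%), against 75% of all genes. The KRT genes supplied 25 of the 28, out of 55. Only 3 of 94 KRTAP genes, KRTAP5-5, KRTAP10-11 and KRTAP12-4, were overlapped in all 4, which is 3.19%, against 5.25% of the 1010 genes no longer than the longest KRTAP gene. Relative cover was 7.76 and 8.83 in control and 8.70 and 8.69 after succinate for KRT genes, and 1.99 and 1.08 in control and 2.64 and 2.01 after succinate for KRTAP genes. The 1010 genes no longer than the longest KRTAP gene had 1.93 and 1.55 in control and 1.86 and 1.78 after succinate, near the KRTAP values. KRT genes were thus covered more than KRTAP genes in each library. Classes of KRT genes also differed. The 22 keratins of stratified epithelia had 14 members overlapped in all 4 libraries, the 17 hair shaft keratins 6, the 9 keratins of the inner root sheath and companion layer 3, and the 6 keratins of simple epithelia 2.

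The type II locus at 12q13 was covered over most of its gene-body bases in every library. Of its gene-body bases, 69.2% and 52.4% lay under H3K27me3 in control and 68.8% and 60.7% after succinate, and 18 of 27 genes were overlapped in all 4 libraries. With the bases between genes included, 65.4%, 48.8%, 62.2% and 57.2% of the locus was covered in control replicates 1 and 2 and succinate replicates 1 and 2, against 23.7%, 17.4%, 26.3% and 26.6% of the 500 kb on each side. In every library the locus was covered more than its flanks. The peaks on its members numbered 24 and 16 in control and 19 and 16 after succinate, and the widest measured 53733, 52954, 57585 and 81423 bp, so a single peak spanned up to 5 genes.

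Within that locus many genes of hair, epidermis and mucosa were covered whole. KRT83, KRT84 and KRT85, keratins of the hair shaft, had 100% of their bases under H3K27me3 in every library. So did KRT71 and KRT74 of the inner root sheath, KRT1 of the suprabasal epidermis, KRT3 of the cornea, KRT4 of mucosal epithelia and KRT78. KRT6A, a keratin of wounded and appendage epithelium, was covered to at least 99.3% in each library. Its near-identical copies KRT6B and KRT6C were overlapped in no library. The stretch free of peaks that holds them measured 45.1 and 77.0 kb in control and 43.9 and 43.0 kb in succinate. How reads were assigned between these copies is not given in the sources used here, and their empty state is uncertain for that reason. A few genes were free of the mark in control replicate 2 alone, the H3K27me3 control list with fewer peaks. KRT75 of the companion layer was covered to 100% and 0% in control and 100% and 69.8% after succinate, and the epidermal keratin KRT77 to 100% and 0% in control and 100% and 67.1% after succinate. KRT73 of the inner root sheath was covered in part, to 76.7% and 54.0% in control and 84.6% and 43.5% after succinate. KRT80, at the outer edge, was covered to 87.3% and 60.8% in control and 87.9% and 64.4% after succinate.

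H3K27me3 stopped short of KRT8 and KRT18, at the other edge of the locus. No base of either gene lay under an H3K27me3 peak in any library. The last covered base before the annotated body of KRT8 was 14.6 and 15.4 kb away in control and 15.4 and 14.6 kb away in succinate, beyond the covered gene KRT78. The position of this border varied by less than 1 kb between the 4 libraries. The next covered base after KRT18 was 252 and 270 kb away in control and 133 kb away in both succinate libraries. The free stretch that holds the KRT8 and KRT18 pair was therefore 322 and 341 kb long in control and 204 and 203 kb long in succinate. Its far end was set in both succinate libraries by a peak of 14110 and 13972 bp that starts at chr12:53085571 or chr12:53085709, and no control peak lay there. No member lies in that peak. The annotated body of KRT8 is 52670 bp long, the longest of the members, and shares 1006 bp with KRT18.

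**Figure D1:**
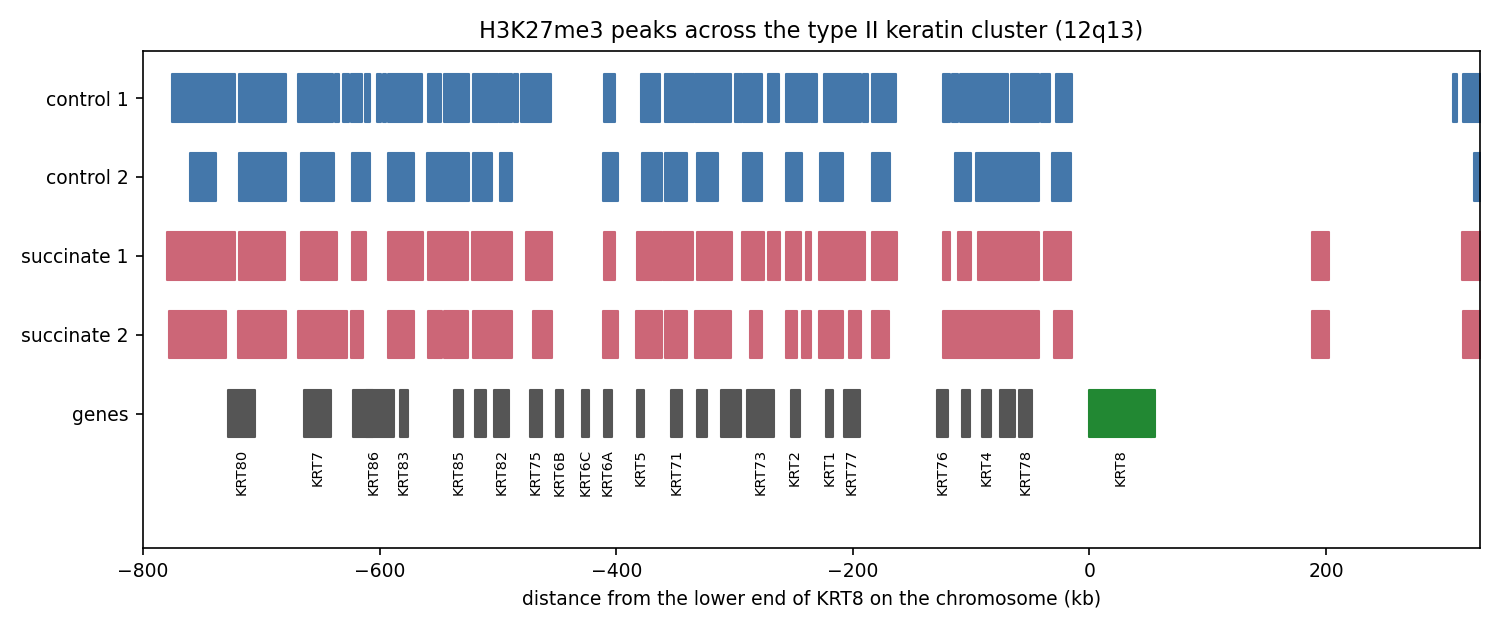
H3K27me3 peaks along the type II keratin locus, by distance in kb from the lower end of KRT8, with 1 row of bars per library (blue control, red succinate) and gene bodies below (green KRT8 and KRT18 drawn together, grey other KRT genes). Bars cover most of the locus in all 4 libraries, leave the KRT6B and KRT6C stretch open and end 14.6 to 15.4 kb before KRT8.

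At 17q21 the gene bodies under the mark lay at 1 end of the type I locus, with exceptions in control replicate 1 alone. The 10 genes from KRT32 to KRT17 had 90.3% and 62.6% of their bases covered in control and 98.0% and 62.6% after succinate. In all 4 libraries H3K27me3 overlapped 7 of them: KRT36 of the hair shaft, KRT13 of mucosal epithelia, KRT15 and KRT14 of basal cells, KRT16 and KRT17 of appendages and stressed epidermis, and KRT19 of simple epithelia. Each of these was covered to 100% in every library, except that KRT19 was covered to 57.5% in control replicate 1. The other 3, KRT32, KRT35 and KRT9, were overlapped in both replicate 1 libraries and in neither replicate 2 library.

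The other 52 genes of the locus, from KRT222 to KRT38, were almost free of H3K27me3. No library overlapped 50 of them, among them the epidermal keratin KRT10, the root sheath keratins KRT25 and KRT27, the hair keratins KRT31, KRT33A, KRT33B and KRT34, and 33 of the 34 KRTAP genes of the locus. The exceptions were KRT28, covered to 42.8%, and KRTAP16-1, covered to 100%, both in control replicate 1 alone. The first covered base after KRT38 lay 20.6 and 42.4 kb beyond it in control and 18.7 and 42.3 kb beyond it in succinate. Its position followed the replicate number and not the treatment. Peaks also lay beyond KRT17, outside the locus. A peak between the last KRTAP genes and KRT33A, on no member, ended at chr17:41336809 in control replicate 1 and at chr17:41336891 and chr17:41336892 after succinate, and control replicate 2 had none there.

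**Figure D2:**
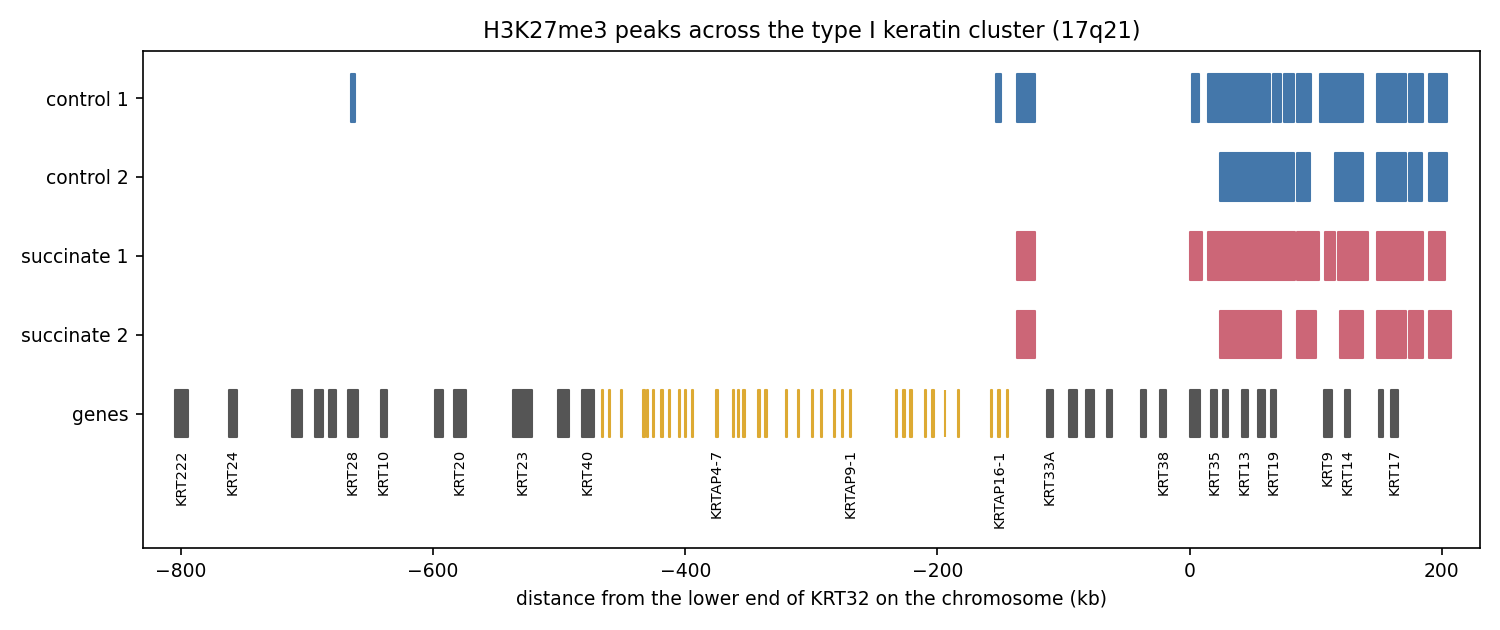
H3K27me3 peaks along the type I keratin locus, by distance in kb from the lower end of KRT32, with 1 row of bars per library (blue control, red succinate) and gene bodies below (grey KRT, yellow KRTAP). Bars gather over the 10 genes from KRT32 to KRT17, whereas 50 of the 52 genes before them lie under no bar.

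The 4 KRTAP loci differed from each other. At 21q22.1, which holds hair proteins such as KRTAP11-1, none of 33 genes and no base of the locus lay under H3K27me3 in any library. The nearest covered base to KRTAP24-1, its longest gene, was 905649 and 2734511 bp away in control and 1743523 and 1781508 bp away in succinate. At 21q22.3, covered bases made up 43.7% and 16.2% of gene bodies in control and 54.7% and 20.8% after succinate, so the replicates differed more than the treatments. KRTAP10-11 and KRTAP12-4 were overlapped in all 4 libraries there, and 5 of 16 genes, including KRTAP10-4, in none. KRTAP10-1 and KRTAP10-9 were covered whole in both replicate 1 libraries and in neither replicate 2 library, and KRTAP12-3 in control replicate 2 and succinate replicate 1. KRTAP10-8 was covered in all but control replicate 2, and KRTAP12-1 in all but succinate replicate 2. KRTAP10-7 was covered in control replicate 1 alone, and KRTAP10-3 and KRTAP10-10 in succinate replicate 1 alone. At 11q13.4, KRTAP5-11 was covered in succinate replicate 2 alone, and the other 4 genes, including KRTAP5-7, were overlapped in no library.

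**Figure D3:**
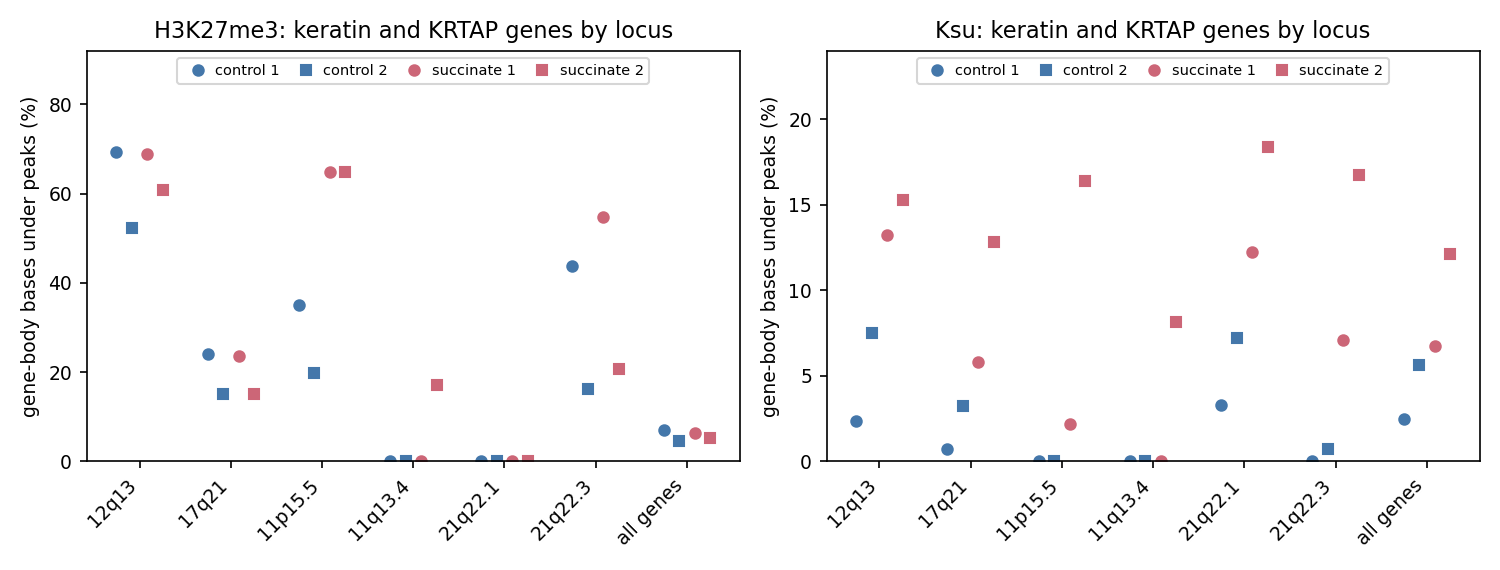
Percentage of the gene-body bases of each locus, and of all protein-coding genes, under H3K27me3 peaks (left) and Ksu peaks (right), with 1 point per library. H3K27me3 covers 52.4% to 69.2% at 12q13 and 0% at 21q22.1, and the 11p15.5 points of succinate, both 64.8%, lie above the control points at 35.1% and 19.7%.

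The simple epithelial keratins were not spared as a class. KRT7, a keratin of ducts and glands, was covered to 100% in all 4 libraries, and KRT19, a bile duct keratin, to 57.5% or 100%. KRT8, KRT18, the gut keratin KRT20 and KRT23 were covered to 0% in each. Over all 6, cover was 23.6% and 25.4% in control and 25.4% in both libraries after succinate, against 56.5%, 39.0%, 56.4% and 45.9% for the 142 hair and skin genes in the same order of libraries. Hair and skin genes here are all members except these 6 and KRT222, so keratins of cornea, mucosa and palate such as KRT3, KRT4 and KRT76 are among them. The difference was -24.5 percentage points (SD 9.11, n = 4 libraries), with the same sign in 4 of 4 libraries and a two-sided exact sign-flip permutation p of 0.125, the smallest that 4 libraries allow. KRT8, whose annotated body is long, weighs heavily in this value. Counted by gene, hair and skin genes were not overlapped more often. The share overlapped in all 4 libraries was 33.3% of the 6 and 18.3% of the 142, and the share in none was 66.7% and 65.5%. With 5 kb added to each side of every gene the difference was -2.06 percentage points (exact sign-flip permutation p = 0.5).

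Taking all loci as wholes, H3K27me3 covered 26.5% and 18.8% of their bases in control and 26.7% and 22.7% after succinate. Their flanks were covered to 19.7% and 13.2% in control and 22.1% and 20.3% after succinate. The mean difference was 4.80 percentage points (SD 1.86, n = 4 libraries, exact sign-flip permutation p = 0.125, two-sided), and it was 8.56 with flanks of 1 Mb. The gap was widest at 12q13. At 11p15.5 it ran the other way in all 4 libraries, with 35.0%, 17.9%, 43.6% and 37.0% of the locus covered, against 48.5%, 36.6%, 53.1% and 50.3% of its flanks. At 17q21 cover was 15.6%, 11.1%, 16.4% and 11.6% in the order given above, against 12.5%, 7.22%, 16% and 12.2% of its flanks.

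Promoter sequences are described here because CpG-rich promoters are a known setting of Polycomb binding. Whether they bear on the division of the members was not tested. RefSeq promoter windows of 300 bases, from 250 before to 50 after the start, were found for 114 of the 149 members and for 15843 protein-coding genes. The 114 comprise 80 of the 94 KRTAP genes but only 34 of the 55 KRT genes. No window was found for KRT18 or for many covered genes, among them KRT1, KRT6A, KRT7, KRT13, KRT14, KRT15, KRT16, KRT17 and KRT19. The members' windows held a median of 2 CpG dinucleotides, against 22 for all genes, and a median observed-to-expected CpG ratio of 0.168 against 0.763. No member's ratio exceeded 0.607. H3K27me3 overlapped the windows of 13 members in all 4 libraries (11.4%), against 7.35% of all windows. The median ratio of those 13 was 0.142, close to the 0.164 of the 84 members whose windows were overlapped in none (73.7%, against 83% of all windows), whereas the 1164 genes of the whole annotation with the window overlapped in all 4 had a median of 0.659. Among the members with a window, promoters under H3K27me3 and free of it thus both had low CpG medians. Many of the covered KRT genes are missing from this comparison. These windows were examined after the peak values had been seen, and the ratios are descriptions without a test.

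The letters TATAAA, the core of the TATA box, occurred on the gene's own strand in 79 of 114 member windows (69.3%), against 6.91% of all windows. On either strand the shares were 73.7% and 9.63%. With the motif starting 40 to 20 bases before the start, the shares were 43.0% and 3.64%. Members whose windows were overlapped by H3K27me3 in all 4 libraries held it in 30.8%, and members overlapped in none in 75.0%. The latter are mostly KRTAP genes, and the share was 28.6% at 12q13 and 79.2% at 17q21, so locus and H3K27me3 state cannot be told apart here. Some windows are copies of each other: 16 of the 80 KRTAP windows shared a run of 50 bases with another window, and members are not independent sequences.

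The 250 bases before the start are printed for 6 members because they set promoters that lay free of H3K27me3 in all libraries (KRT8, KRT10, KRTAP11-1) beside those under it in all (KRT5, KRT4, KRTAP12-4). Each is from RefSeq, GRCh38.p14, minus strand, written 5′ to 3′ in the direction of the gene, with TATAAA in capitals. The window of KRT8 belongs to 1 of its annotated starts and lies inside its annotated body.
KRT8: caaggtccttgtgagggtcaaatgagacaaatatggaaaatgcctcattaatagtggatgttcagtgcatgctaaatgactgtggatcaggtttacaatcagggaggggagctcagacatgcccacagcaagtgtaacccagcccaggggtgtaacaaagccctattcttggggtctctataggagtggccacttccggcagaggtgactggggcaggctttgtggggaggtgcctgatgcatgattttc
KRT10: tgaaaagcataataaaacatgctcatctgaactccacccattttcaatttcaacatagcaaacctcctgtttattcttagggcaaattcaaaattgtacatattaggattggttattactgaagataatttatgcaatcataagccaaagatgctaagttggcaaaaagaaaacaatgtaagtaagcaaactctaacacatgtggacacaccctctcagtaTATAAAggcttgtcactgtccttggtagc
KRTAP11-1: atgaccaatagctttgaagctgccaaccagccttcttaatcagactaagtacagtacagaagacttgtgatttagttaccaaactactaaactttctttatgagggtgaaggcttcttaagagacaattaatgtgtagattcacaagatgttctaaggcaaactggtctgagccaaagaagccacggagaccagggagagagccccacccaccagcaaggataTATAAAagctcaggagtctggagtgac
KRT5: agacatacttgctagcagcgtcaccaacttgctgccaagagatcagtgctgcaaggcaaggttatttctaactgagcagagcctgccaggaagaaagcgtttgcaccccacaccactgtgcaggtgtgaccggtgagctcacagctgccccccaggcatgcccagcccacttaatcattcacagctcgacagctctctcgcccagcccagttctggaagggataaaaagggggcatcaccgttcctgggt
KRT4: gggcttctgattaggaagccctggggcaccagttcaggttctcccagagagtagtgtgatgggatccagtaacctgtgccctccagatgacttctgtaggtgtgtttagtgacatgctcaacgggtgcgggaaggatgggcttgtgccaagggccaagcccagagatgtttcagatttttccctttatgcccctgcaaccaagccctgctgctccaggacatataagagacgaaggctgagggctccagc
KRTAP12-4: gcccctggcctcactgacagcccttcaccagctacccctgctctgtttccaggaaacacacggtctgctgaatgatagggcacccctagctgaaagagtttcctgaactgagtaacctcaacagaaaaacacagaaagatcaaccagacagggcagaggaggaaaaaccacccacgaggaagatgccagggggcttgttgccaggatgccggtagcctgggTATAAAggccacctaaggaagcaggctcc
The KRT10 sequence, free of the mark, held 0 CpG and TATAAA 29 bases before the start. That of KRTAP12-4, under the mark, held 3 CpG and TATAAA at the same distance. KRTAP11-1, free of the mark, held 1 CpG and the motif 27 bases before its start. KRT8, KRT5 and KRT4 held no TATAAA in these 250 bases, and they held 1, 6 and 3 CpG. Among these 6 examples the promoters under the mark held more CpG than those free of it. Over all member windows, which are slightly longer, the median CpG count was 2 under the mark in all 4 libraries and 2 in none. The median observed-to-expected ratios of those windows, 0.142 and 0.164, are a different measure from these counts. TATAAA occurred in both states.

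**Figure D4:**
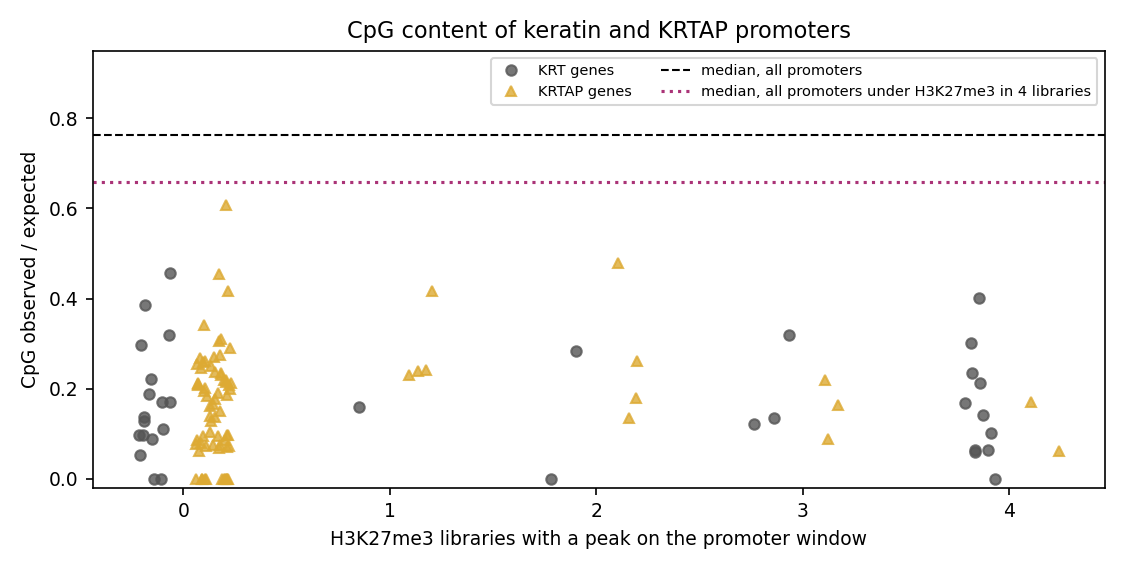
Observed-to-expected CpG ratio of the RefSeq promoter window (vertical axis, no unit) of each of 114 members, by the number of H3K27me3 libraries with a peak on the window (horizontal axis), with lines at the medians of all promoters (0.763) and of all promoters under H3K27me3 in 4 libraries (0.659). Points of members overlapped in none and in all 4 libraries span similar low ratios, with medians of 0.164 and 0.142.

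Between treatments, H3K27me3 on the members as a whole differed by no more than the replicates did. Mean relative cover was 7.41 ± 0.572 in control (SD, n = 2) and 7.86 ± 0.0658 in succinate. The difference of 0.449 had a pooled SD of 0.407, and the treatments' libraries overlapped. The two-sided exact permutation p was 0.667, and the smallest p that 2 libraries against 2 allow is 0.333. The difference was 0.0444 without control replicate 1, and it turned to -0.197 with equal numbers of peaks per library and to -1.13 with a common floor.

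Single genes were few. H3K27me3 overlapped 3 members only in both succinate libraries, against 0.279% of all genes, and 1 member only in both control libraries, against 0.145%. Without control replicate 1 the first count was 9, without succinate replicate 2 it was 5, and the second count was 4 without control replicate 2 and 2 without succinate replicate 1. Another 5 members were overlapped only in both replicate 1 libraries, against 2.93% of all genes. The 3 members were KRTAP5-4 and KRTAP5-6 at 11p15.5 and KRTAP10-12 at 21q22.3, all genes of hair cuticle proteins. Each was covered to 0% in both control libraries and to 100% in both succinate libraries. The nearest control peak lay 816 and 1044 bp from KRTAP5-4, 1208 and 2943 bp from KRTAP10-12, and 6074 and 29355 bp from KRTAP5-6. KRTAP5-4 and KRTAP10-12 thus lay just outside a control peak, and KRTAP5-6 farther off. KRTAP5-6 lost the pattern with the stronger 50% of peaks, and KRTAP5-4 and KRTAP10-12 lost it with 5 kb added. All 3 kept it with equal numbers of peaks, with a common floor and at 50% cover, but these settings are weak checks of it. Genes covered to 0% or 100% cannot change at 50% cover. The equal number and the floor were those of succinate replicate 2, whose list stayed whole. They could break the pattern only through succinate replicate 1, and they also removed control peaks. Among all genes the pattern rose from 56 genes to 240 with equal numbers and 446 with a common floor.

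At 11p15.5 a single succinate peak spanned KRTAP5-3 to KRTAP5-5, and no control peak spanned more than 1 of these genes. Control replicate 1 had peaks at chr11:1599166-1609104 over KRTAP5-3, at chr11:1614990-1620142 on no member and at chr11:1623334-1647882 over KRTAP5-5. Control replicate 2 had peaks at chr11:1623182-1637851 over KRTAP5-5 and at chr11:1642262-1647882 on no member. The spanning peak lay at chr11:1602415-1647882 in succinate replicate 1 and at chr11:1605764-1637584 in succinate replicate 2, which had another at chr11:1642246-1647858 on no member. KRTAP5-6 lay under a further peak in each succinate library, at chr11:1693771-1716539 and chr11:1693241-1702356. Cover of the 6 genes was 35.1% and 19.7% in control (27.4 ± 10.9, SD, n = 2) and 64.8% in both succinate libraries. The values did not overlap, and relative cover was 4.96 and 4.30 in control and 10.3 and 12.2 after succinate. With the bases between genes included, cover of the locus was 35.0% and 17.9% in control and 43.6% and 37.0% after succinate. Over the whole locus, control replicate 1 thus lay close to succinate replicate 2, and the gap between treatments was smaller than on the gene bodies. This locus was singled out after its values were seen, and the exact permutation p of its relative cover is 0.333, the smallest possible.

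KRT5, the type II keratin of basal keratinocytes, had a border of H3K27me3 that differed between treatments, and was also singled out after its values were seen. Its cover was 31.8% and 31.2% in control and 97.8% and 100% after succinate, with no overlap between treatments. KRT5 is read from the minus strand with its start at chr12:52520394. The control peaks began at chr12:52518546 and chr12:52518582 and so reached the first 1.85 and 1.81 kb of the gene and the promoter printed above. The succinate peaks began at chr12:52514705 and chr12:52513942 and ran through nearly all of the gene. The values stayed the same when each list was reduced to its stronger 50% by total signal, when all lists held equal numbers of peaks and when a common floor was set.

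KRT81, a hair shaft keratin, went the other way, with cover of 58.6% and 60.2% in control and 0% in both libraries after succinate. KRT86, within whose annotated body KRT81 lies, was covered to 63.5% and 56.3% in control and 44.9% and 39.2% after succinate. The peak over them ended at chr12:52289207 and chr12:52289298 in control. In succinate it ended before KRT81, at chr12:52285352 and chr12:52283371. This pattern was weaker than that of KRT5: with equal numbers of peaks, or with a common floor, KRT81 was covered in control replicate 2 alone, and among the stronger 50% of peaks in no library. In all, cover of 5 members was higher in both succinate libraries than in either control library, namely the 3 KRTAP genes, KRT5 and KRT82, against 3.71% of all genes. KRT82, a hair keratin, was covered to 92.6% and 62.7% in control and 100% in both libraries after succinate. Cover was lower for 2, KRT81 and KRT86, against 1.13% of all genes. As shares of the members these are 3.36% and 1.34%, near the shares of all genes.

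Pan-succinyllysine peaks were narrow, with median widths from 444 to 977 bp, and overlapped a smaller share of members than of all genes in each library. In Ksu control replicates 1 and 2, 9 and 45 members were overlapped (6.04% and 30.2%), against 34.8% and 71.1% of all genes. In succinate replicates 1 and 2 they were 54 and 85 (36.2% and 57.0%), against 72.2% and 84.4%. These shares were not matched for gene length. Of the 94 KRTAP genes, 2 and 12 were overlapped in control and 17 and 32 after succinate. Of the 1010 genes no longer than the longest KRTAP gene, 36 and 154 were overlapped in control and 176 and 266 after succinate. Member bases under Ksu made up 1.72% and 5.68% in control and 10.2% and 14.5% after succinate, against 2.47%, 5.63%, 6.72% and 12.1% of all gene bodies.

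In relative cover, Ksu was below or at the level of all gene bodies in control, 0.694 and 1.01, and above it in succinate, 1.52 and 1.2. The means were 0.851 ± 0.222 in control and 1.36 ± 0.225 in succinate (SD, n = 2 each), and the libraries did not overlap. The difference of 0.505 had a pooled SD of 0.224, and the two-sided exact permutation p of 0.333 is the smallest that the design allows. Without control replicate 1 the difference was 0.348, and it was 0.827 with equal numbers of peaks and 1.62 with a common floor. The common floor left Ksu control replicate 2 with peaks over 0 members and 0.0821% of all gene bodies. The value of 1.62 therefore rests on a nearly empty control list and does not show a larger treatment difference. Relative cover by H3K27me3 exceeded that by Ksu by 6.53 (pooled SD 0.329), and all 4 H3K27me3 libraries lay above all 4 Ksu libraries. The exact permutation p within treatments was 0.0556, the smallest possible, and the difference was 3.66 with 5 kb added to each side of the genes. Over the 7 tested values of this kind, the Benjamini-Hochberg adjusted p was 0.219 for the antibody difference, for both comparisons of loci with flanks and for the H3K27me3 class difference. It was 0.389 and 0.667 for the Ksu and H3K27me3 treatment differences and 0.35 for the Ksu class difference, all from exact permutation tests.

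**Figure D5:**
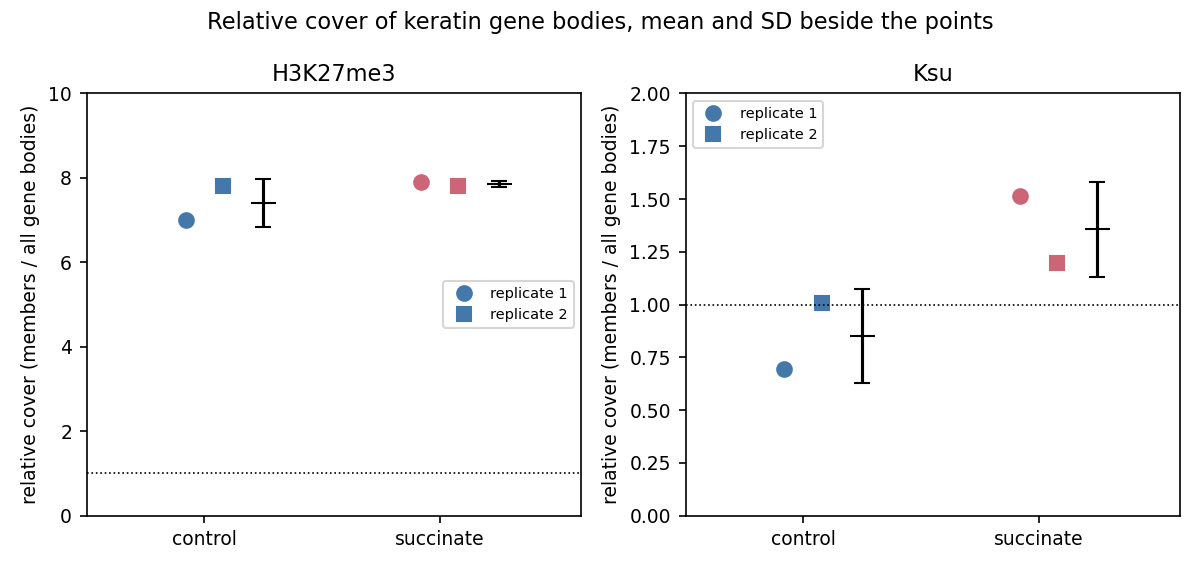
Relative cover of members (their percentage of bases under peaks divided by that of all protein-coding gene bodies, no unit) by library, for H3K27me3 and Ksu, with blue control and red succinate points, bars for the mean and SD (n = 2) and a dotted line at 1 for all gene bodies. H3K27me3 points lie between 7.0 and 7.90 with overlapping treatments, and Ksu points at 0.694 and 1.01 in control lie below those at 1.52 and 1.2 in succinate.

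By locus, relative Ksu cover at 12q13 was 0.960 and 1.34 in control and 1.97 and 1.26 after succinate, and the treatments overlapped. At 17q21 it was 0.299 and 0.578 in control and 0.863 and 1.06 after succinate. The 52 genes from KRT222 to KRT38, almost free of H3K27me3, had 0.394 and 0.322 in control and 0.893 and 0.927 after succinate, a difference of 0.552 against a replicate SD of 0.0395 (two-sided exact permutation p = 0.333, the lowest that 2 against 2 allow). This stretch of 52 genes is not among the 7 tested values, and its limit at KRT32 follows the H3K27me3 peaks. These genes had less Ksu cover than gene bodies at large in each of the 4 libraries. At 21q22.1, which held no H3K27me3, relative Ksu cover was 1.34 and 1.28 in control and 1.82 and 1.52 after succinate. At 21q22.3 it was 0 and 0.124 in control and 1.06 and 1.38 after succinate.

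Ksu overlapped 5 members in all 4 libraries, against 31.7% of all genes, and 46 in none, against 9.97% of all genes. All 46 were KRTAP genes, and of the genes no longer than the longest KRTAP gene 54.6% were overlapped in none and 0.297% in all 4. The 5 were KRT8 and KRT7 of simple epithelia, the hair keratin KRT86, the root sheath keratin KRT72 and the palate keratin KRT76. Without control replicate 1 the first count was 29. KRT8 was covered to 2.60% and 3.54% in control and 5.09% and 12.9% after succinate, so the succinate values were higher. KRT18 was covered in succinate replicate 1 alone, to 11.9%. Together the pair had a relative Ksu cover of 0.992 and 0.594 in control and 0.845 and 1.01 after succinate, so that beside all gene bodies the treatments overlapped.

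Among the other simple epithelial keratins, Ksu covered KRT7 to 10.1% and 5.24% in control and 14.1% and 9.42% after succinate, with overlap between treatments. KRT19 was covered in the replicate 2 libraries alone, to 9.78% and 6.84%. KRT23 showed the same, at 5.32% and 4.43%, and KRT20 was covered in succinate replicate 2 alone, to 12.4%. Over the 6 genes Ksu cover was 3.40%, 4.01%, 5.91% and 10.3% in the order of libraries above, against 1.37%, 6.18%, 11.3% and 15.7% for hair and skin genes. The simple epithelial keratins were higher in control replicate 1 and lower in the other 3 libraries (mean difference -2.73 points, SD 3.52, exact sign-flip permutation p = 0.25). Without control replicate 1 the mean difference was -4.32 points. Against the flanks the loci were higher in Ksu cover by 1.59 points (SD 0.623, n = 4 libraries, exact sign-flip permutation p = 0.125), or 0.775 points with a common floor.

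Only in both succinate libraries, Ksu overlapped 14 members (9.40%), against 7.63% of all genes, and only in both control libraries 0, against 0.0998% of all genes. The 14 included 7 KRT genes, all at 17q21: KRT24 of stratified epithelia was covered to 27.6% and 20.3% in succinate, KRT33B of the hair shaft to 19.2% and 11.6%, and the epidermal keratin KRT10 to 21.2% and 5.96%. KRT25 was covered to 8.02% and 16%, KRT27 to 21.1% and 6.06%, KRT34 to 15.0% and 6.26%, and KRT222, a keratin-like gene, to 3.20% and 2.30%. Of the KRTAP genes among them, KRTAP29-1 was covered to 45.3% and 36.7% and KRTAP11-1 to 18.7% and 39.3%. With equal numbers of peaks the count was 4, against 5.64% of all genes, and 1 of the 14, KRTAP11-1, was among them. With a common floor it was 4, against 3.92% of all genes, and 0 of the 14 were among them, so none of the KRT genes just named kept this pattern in either setting. The count of 14 was 16 without control replicate 1, 38 without control replicate 2, 45 without succinate replicate 1 and 23 without succinate replicate 2. Another 8 members, KRT5, KRT16 and KRT19 among them, were overlapped only in both replicate 2 libraries, against 6.98% of all genes. Ksu cover was higher in both succinate libraries than in either control library for 30 members (20.1%), against 46.6% of all genes, and lower for 0, against 0.484%. Most members are short KRTAP genes, and these shares were not matched for gene length.

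Members under H3K27me3 carried more Ksu cover than members free of it in each of the 4 libraries. The 28 members under H3K27me3 in all 4 libraries had Ksu cover of 1.84% and 8.20% in control and 12.7% and 16.2% after succinate. All genes in the same state had 3.71%, 6.91%, 10.8% and 15.3%. The 98 members under H3K27me3 in no library had Ksu cover of 1.42% and 3.13% in control and 6.21% and 11.8% after succinate, and 77 of the 98 are KRTAP genes. All genes in that state had 1.85%, 4.68%, 5.54% and 11.2%. KRT76 gives an example of both marks on a single gene, with Ksu at 4.72% and 3.38% in control and 20.3% and 31.1% after succinate, and H3K27me3 at 45.4% and 0% in control and 43.1% and 45.3% after succinate. KRT1 had H3K27me3 over 100% of its bases in each library and Ksu over 0% and 14.6% in control and 30.4% and 23% after succinate. KRT72, with 79.3% and 0% H3K27me3 in control and 54.0% and 49.3% after succinate, had 8.92% and 3.24% Ksu in control and 17.1% and 4.58% after succinate. The lists do not show whether both marks lay on the same nucleosomes or in the same cells.

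Other genes of the epithelial programme are read against the shares of all genes, 12.3% overlapped by H3K27me3 in all 4 libraries and 75% in none. Of 11 regulators of hair and skin, 7 were overlapped in all 4 libraries, namely GRHL3, GATA3, OVOL1, HOXC13, FOXN1, DLX3 and LEF1, and 2, TP63 and ZNF750, in none (63.6% and 18.2%). GATA3, OVOL1 and DLX3 were covered to 100% in each library. LEF1 was covered only to 8.56% and 5.00% in control and 3.33% and 3.47% after succinate. HOXC13 was covered to 36.4% in control replicate 2 and to 100% in the other libraries. Of 15 desmosome and linker genes, which anchor keratin filaments to the cell border, PKP1 alone was overlapped in all 4 and 12 in none (6.67% and 80.0%), near the shares of all genes. Of 39 epidermal differentiation genes 0 were overlapped in all 4 and 37 in none (94.9%), with FLG and TCHH covered in control replicate 1 alone, to 27.9% and 56.4%. Of 12 genes of other intermediate filaments, PRPH, GFAP, DES and BFSP1 were overlapped in all 4, and the lamins LMNA, LMNB1 and LMNB2 with VIM and SYNM in none (33.3% and 41.7%). Of KRTAP genes 81.9% were overlapped in none, and of the genes no longer than the longest KRTAP gene 85.3%. These counts are descriptions without a test.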

How the data were processed

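CUT&Tag libraries of HepG2/C3A cells were analysed from 8 peak lists, 1 per library, with 2 for each antibody and treatment. Per the submitters' processing notes the peaks were called with SEACR on hg38, and the deposited file names give its stringent mode. The aligner, versions, control track, threshold and scaling are not given in the sources used here. Each deposited list gives coordinates and, for each peak, the total and the highest signal, as the authors computed them. All highest-signal values were whole multiples of 1 step per library. The step differed between libraries, so signal was used only to rank peaks within a library and, in steps, for floors (the lowest total signal in a list). Replicates had been called separately, and read depth is unknown.

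Gene bodies, symbols and promoter windows came from RefSeq tables of GRCh38.p14, the assembly that hg38 names. Member cover, relative cover, loci (gaps under 1 Mb) and flanks (500 kb on each side) were computed from these. Libraries were grouped by the labels. Treatments were compared by an exact permutation test over 6 arrangements, antibodies over 36, and paired values by exact sign flips, all two-sided. No design here can give a p under 0.05. Scripts were checked on simulated peak lists. The members, classes and lists were chosen with earlier results of these data known. Genes named by rule were the 6 simple epithelial keratins, up to 12 members under H3K27me3 and 10 under Ksu in all 4 libraries by mean cover, up to 8 per antibody and direction overlapped in 1 treatment only, and the longest member of each locus. Other names complete counts or were singled out after their values were seen. The alternatives kept the stronger 50% of each list by total signal, the same number of peaks in every list (5531 for H3K27me3, 76702 for Ksu) or only peaks above a common floor (330250 and 8977 steps). Others added 5 kb to each side of genes, asked for 50% cover, used flanks of 1 Mb, dropped 1 library at a time or blocked on the replicate number. Python 3.11.15, numpy 2.4.6, pandas 2.3.3 and matplotlib 3.10.9 were used. The 4 IgG samples were not used here.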

Additional observations from a re-analysis of the deposited data

How the results depend on the processing

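Of 60 settings other than leaving out a library, 32 kept the result within the spread or within 1.5 times the count, 26 moved it and 2 reversed it. The cause of each change was not tested. The treatment difference in relative H3K27me3 cover, 0.449, reversed to -0.197 with equal numbers of peaks and to -1.13 with a common floor. The count of members under H3K27me3 only in both control libraries was 0 with the stronger 50% of peaks, equal numbers, a common floor or 5 kb added, and 2 at 50% cover. The count only in both succinate libraries was 6 with a common floor and 1 with 5 kb added. Loci exceeded flanks of 1 Mb by 8.56 points, and the H3K27me3 class difference was -2.06 points with 5 kb added. For Ksu, members in all 4 libraries numbered 2 with the stronger 50%, 2 with equal numbers, 0 with a common floor, 16 with 5 kb added and 0 at 50% cover. Members only in both succinate libraries numbered 5, 4, 4, 22 and 0 in the same order. The common floor left Ksu control replicate 2 with peaks over 0 members and 0.0821% of all gene bodies. That fixed the count in all 4 libraries at 0 and bears on every Ksu value at this setting. Loci exceeded flanks by 0.775 points with a common floor. The Ksu treatment difference was 0.827 with equal numbers and 1.62 with a common floor. The antibody difference was 6.96 with the stronger 50%, 7.04 with equal numbers, 7.67 with a common floor and 3.66 with 5 kb added.

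With each library left out, no result reversed and 10 of 52 values moved. H3K27me3 counts ranged from 28 to 34 in all libraries, from 1 to 4 in control only and from 3 to 9 in succinate only, the last without control replicate 1. Ksu counts ranged from 5 to 29, from 0 to 8 and from 16 to 45. The differences ranged from 4.14 to 5.61 and from 1.43 to 1.88 points for loci against flanks, from -28.1 to -21.6 and from -4.32 to -1.85 points for the classes, from 0.0444 to 0.853 and from 0.345 to 0.664 for treatment, H3K27me3 first, and from 6.44 to 6.60 between antibodies. With the replicate number as a block the treatment differences stayed at 0.449 and 0.505, with exact sign-flip p of 1 and 0.5 (smallest possible 0.5). The labels give no more than a shared number, and deviations of same-numbered libraries correlated at 0.342 for H3K27me3 and 0.0589 for Ksu across genes, which are not independent replicates.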
